A study of Mus musculus with 24 samples.

Results

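The genes described here were 10 genes of bile acid synthesis and transport, taken by their symbols from a joined expression table of 24532 genes. Of these, 5 act in synthesis and conjugation (Cyp7a1, Cyp7b1, Cyp8b1, Cyp27a1 and Baat) and 5 in transport (Abcb11, Abcb4, Slc10a1, Slco1a1 and Slco1b2), and all 10 were found in the table. The comparison was liver of LKO mice against liver of Ctrl mice. Ctrl mice carried Crif1flox/flox and LKO mice carried Alb-Cre;Crif1flox/flox, so the floxed Crif1 alleles were present in both groups and the Cre transgene in LKO only. The mice were of the C57BL/6 strain, were 8 weeks old and ate chow, and each group gave 3 liver libraries. The albumin promoter drives Cre in hepatocytes, so other liver cells keep Crif1, which encodes a factor that the mitochondrial ribosome needs to make subunits of oxidative phosphorylation (OxPhos). The same 2 genotypes were also measured in inguinal white adipose tissue (iWAT), gastrocnemius muscle (GM) and hypothalamus, with 3 libraries per group and 24 in all. Nothing in the labels ties libraries of different tissues to a mouse.

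Bile acids are made from cholesterol in hepatocytes. In the classical pathway CYP7A1 performs the rate-limiting first step and CYP8B1 directs the product toward cholic acid, while in the alternative pathway CYP27A1 in mitochondria and CYP7B1 act in turn on oxysterols. BAAT then joins the acids to taurine or glycine. NTCP (Slc10a1) and the organic anion transporters of the Slco1 family take bile acids up from portal blood across the sinusoidal membrane, BSEP (Abcb11) exports them into the canaliculus, and MDR2 (Abcb4) moves phosphatidylcholine into bile, where it shields the duct from the detergent action of the acids.

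Values are given in FPKM, sequenced fragments per length of transcript and per size of library, which allow levels of different genes to be set side by side. Depth was estimated from the deposited coverage and FPKM at 5.42 to 8.09 Gb in the Ctrl liver libraries and 4.7 to 5.54 Gb in the LKO liver libraries. Crif1 itself, listed as Gadd45gip1, stood at 14.6, 12.5 and 13.6 FPKM in Ctrl liver and at 5.4, 2.0 and 2.51 FPKM in LKO liver, and the groups did not overlap. The highest of the LKO libraries was LKO 1, which also stood apart from LKO 2 and LKO 3 in several genes described below. Without it 7 members were called lower and 2 higher, as with it. Among all genes, 892 of 10436 tested were then called lower and 6144 higher, against 601 and 4193 of 10956 with it. The 6 hepatocyte markers found summed to 58822 to 62353 FPKM in Ctrl and 49608 to 74797 FPKM in LKO, with 1 of them called higher and 0 lower. Alb made up most of each sum, and single markers moved in both directions. Apoa1 was at 7145, 7137 and 7105 FPKM in Ctrl and at 6164, 4573 and 2942 FPKM in LKO. Ahsg was at 4740, 5488 and 5620 FPKM in Ctrl and at 7617, 8869 and 8897 FPKM in LKO. Summed markers of other liver cells were higher in every LKO library than in every Ctrl library, as were 53% of tested genes taken singly. Kupffer cell and macrophage markers summed to 101 to 104 FPKM in Ctrl and 219 to 338 FPKM in LKO, where 6 of 6 tested were called higher, against 38.3% of all tested genes. The sums were 67.6 to 75.2 and 181 to 201 FPKM for stellate cell markers, 37.2 to 39.9 and 50.9 to 101 FPKM for cholangiocyte markers, 1.39 to 1.99 and 8.92 to 11 FPKM for neutrophil markers and 71.9 to 73.0 and 80.1 to 131 FPKM for sinusoidal endothelial markers, of which 2 of 5 were called higher, near the share of all genes. No list had a marker at 0 in every library. The part of these cells in the values that follow was not tested. In bulk tissue, fewer cells of a type and less RNA per cell cannot be told apart.

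The promoters of the 3 lower members whose start held a match to a searched motif are shown here beside that of Abcb4, which was higher. RefSeq promoters on GRCm38.p6, the build of the deposited coordinates, cover 250 bases before to 50 bases after the start and were found for 7 of the 10 members, not for Cyp7a1, Cyp7b1 or Baat. They are written 5′ to 3′ on the strand of the gene, with the letters of a searched motif in capitals. Cyp8b1 (chr9:121916256-121916555, minus strand), Slc10a1 (chr12:80968030-80968329, minus strand) and Slco1b2 (chr6:141629268-141629567, plus strand) were lower in LKO liver, and Abcb4 (chr5:8893471-8893770, plus strand) was higher.
Cyp8b1: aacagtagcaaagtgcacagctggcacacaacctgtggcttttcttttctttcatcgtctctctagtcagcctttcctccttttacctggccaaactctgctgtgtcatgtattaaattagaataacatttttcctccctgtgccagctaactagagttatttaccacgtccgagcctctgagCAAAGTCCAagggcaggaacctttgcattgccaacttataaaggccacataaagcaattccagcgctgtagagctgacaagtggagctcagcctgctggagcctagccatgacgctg
Slc10a1: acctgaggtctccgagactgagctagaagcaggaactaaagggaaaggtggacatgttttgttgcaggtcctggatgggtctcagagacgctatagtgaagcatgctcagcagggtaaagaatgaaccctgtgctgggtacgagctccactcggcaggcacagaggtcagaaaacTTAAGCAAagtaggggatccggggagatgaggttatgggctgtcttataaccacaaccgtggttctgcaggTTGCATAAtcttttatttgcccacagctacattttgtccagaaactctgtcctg
Slco1b2: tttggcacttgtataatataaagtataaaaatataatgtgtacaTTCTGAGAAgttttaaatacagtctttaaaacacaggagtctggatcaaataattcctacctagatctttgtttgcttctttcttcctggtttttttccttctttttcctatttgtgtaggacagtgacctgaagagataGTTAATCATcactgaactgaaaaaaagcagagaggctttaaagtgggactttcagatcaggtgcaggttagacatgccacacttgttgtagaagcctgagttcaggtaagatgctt
Abcb4: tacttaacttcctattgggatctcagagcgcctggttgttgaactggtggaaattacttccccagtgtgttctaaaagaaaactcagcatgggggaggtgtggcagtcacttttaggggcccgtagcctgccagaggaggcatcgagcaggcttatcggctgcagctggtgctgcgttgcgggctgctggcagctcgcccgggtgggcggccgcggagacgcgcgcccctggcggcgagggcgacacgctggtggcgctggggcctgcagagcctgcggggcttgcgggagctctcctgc
In the Cyp8b1 promoter the capitals mark CAAAGTCCA, searched as a motif of HNF4A, a nuclear receptor of hepatocyte identity, beginning 67 bases before the start. This motif was present in 0.475% of 32851 mouse promoters of the same length. In Slco1b2 they mark TTCTGAGAA, a match to the STAT5 motif TTCNNNGAA 206 bases before the start, and GTTAATCAT, a match to the HNF1 motif GTTAATNAT 66 bases before it, and these motifs were present in 8.30% and 0.801% of promoters. In Slc10a1 they mark TTAAGCAA and TTGCATAA, matches to the C/EBP motif TTGCNNAA on either strand, 75 and 4 bases before the start, present in 10.8% of promoters. A second Slc10a1 record, whose start is not that of the deposited coordinates, held the STAT5 match TTCTCTGAA 53 bases before its start. The promoters of Abcb4, Abcb11, Cyp27a1 and Slco1a1 held no match to the 7 motifs searched on both strands, which also included CAAGGTCA for LRH-1 (1.56% of promoters), TGATGNAA for the composite ATF4 element (3.97%) and the inverted repeat bound by FXR (0.0091%). The STAT5 letters and the FXR repeat read the same on both strands, and none of the matches shown overlap each other. A match describes letters in this window and is not evidence of binding.

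Most of the 10 genes were lower in LKO liver, on a background in which most called genes were higher. With limma on log2(FPKM + 1) and Benjamini-Hochberg adjustment over the 10956 genes tested, 7 members were called lower (adjusted p under 0.05), 2 were called higher and 1 was not called. Among all tested genes, 5.49% were called lower and 38.3% were called higher. In the same 7 members every LKO library lay below every Ctrl library, as it did for 8.1% of tested genes, and in the 2 higher members every LKO library lay above every Ctrl library, as it did for 53% of tested genes. The median log2 fold change was -0.95 over the members and 0.33 over all tested genes, so changes are best read against that shift. After scaling each library by its median ratio to the average liver library, the median of all genes was -0.04, and the share of called genes that were higher moved from 87.5% to 45.8%. Under that scaling 8 members were called lower and 1 higher, against 17.9% and 15.2% of all genes, and the member median was -1.39.

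**Figure D1:**
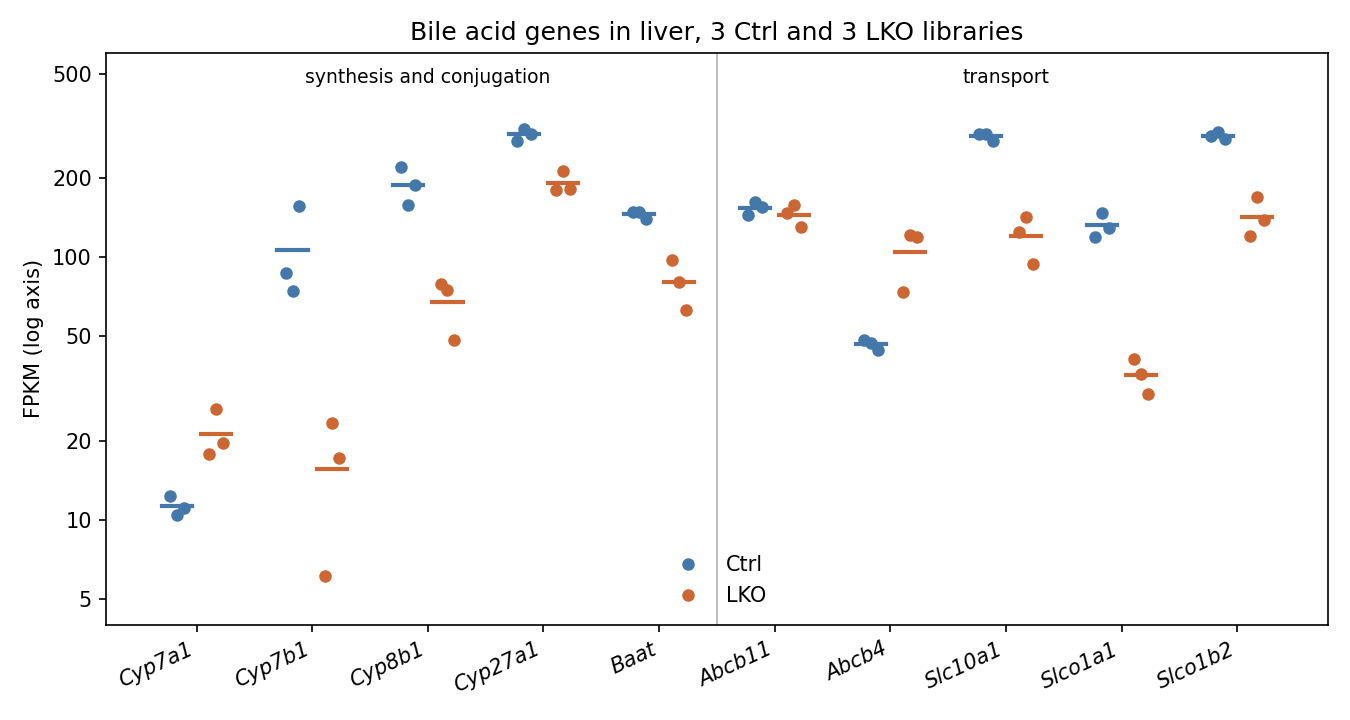
FPKM of the 10 genes in each liver library (vertical log axis), with Ctrl in blue, LKO in orange and a bar at each mean of 3 libraries. The 3 LKO libraries lie below all Ctrl libraries in 7 genes and above them in Cyp7a1 and Abcb4, and the groups overlap in Abcb11.

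The enzymes of the 2 pathways moved in different directions at their first steps. Cyp7a1 (identifier 13122, chr4:6265612-6275631, minus strand) was measured at 12.4, 10.5 and 11.1 FPKM in Ctrl liver and at 17.8, 26.4 and 19.6 FPKM in LKO liver. All LKO libraries were above all Ctrl libraries, and LKO 2 was the highest. The means were 11.3 ± 0.967 and 21.3 ± 4.53 FPKM (SD, n = 3 here and below), a log2 fold change of 0.84 (SE 0.16, 95% interval 0.47 to 1.21, adjusted p = 0.00793 by limma). Under median-ratio scaling the log2 fold change was 0.42 with adjusted p = 0.0697, and with quantile normalization it was 0.47 with adjusted p = 0.0613, so the call of Cyp7a1 was lost under both. Its direction was the same in each of the 16 alternative fits run.

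Cyp8b1 (identifier 13124, chr9:121914356-121916305, minus strand), whose promoter is the first of those printed, was measured at 220.2, 159 and 188 FPKM in Ctrl and at 79.1, 75.3 and 48.6 FPKM in LKO. The highest LKO library stood well below the lowest Ctrl library. The fall was -1.49 on the log2 scale (SE 0.21, 95% interval -1.98 to -0.99, adjusted p = 0.00319), with means of 189 ± 30.7 and 67.7 ± 16.7 FPKM. Within each library, the ratio of Cyp8b1 to Cyp7a1 was 17.8, 15.2 and 16.9 in Ctrl and 4.44, 2.85 and 2.47 in LKO. A scaling that multiplies a whole library leaves this ratio as it is. Its groups did not overlap, which follows from Cyp8b1 being lower and Cyp7a1 higher in every LKO library than in every Ctrl library.

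In the alternative pathway both enzymes fell. Cyp27a1 (identifier 104086, chr1:74713535-74737897, plus strand) was measured at 278, 309 and 296 FPKM in Ctrl and at 180.1, 213 and 181 FPKM in LKO. It had the smallest change of the 7 lower members, a log2 fold change of -0.62 (SE 0.11, 95% interval -0.89 to -0.35, adjusted p = 0.00747). Its call was lost when libraries were scaled to the hepatocyte markers (-0.53, adjusted p = 0.10).

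Cyp7b1 (identifier 13123, chr3:18071950-18243338, minus strand), the oxysterol hydroxylase that follows, was measured at 87.1, 74.6 and 157 FPKM in Ctrl and at 6.11, 23.4 and 17.3 FPKM in LKO. Relative to its mean it varied more than any other member in both groups, with Ctrl 3 the highest and LKO 1 the lowest, and still the groups did not overlap. The means were 106 ± 44.5 and 15.6 ± 8.78 FPKM, and the log2 fold change of -2.79 (SE 0.47, 95% interval -3.90 to -1.68, adjusted p = 0.00549) was the largest of the 10 in size. With ordinary variances for each gene, in place of limma's shrunken ones, its adjusted p was 0.0518. Among the 10956 tested genes, the 3 with the pattern over the 6 liver libraries most like that of Cyp7b1, by root mean square distance of centred log2(FPKM + 1), were Susd4 (0.39), Gm2083 (0.50) and Serpina12 (0.50).

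Since Cyp7b1 fell and Cyp7a1 rose, the ratio of Cyp7b1 to Cyp7a1 had to move further than either gene. It went from 7.05, 7.13 and 14.1 in the Ctrl libraries to 0.343, 0.887 and 0.879 in the LKO libraries. Cyp7b1 thus stood above Cyp7a1 in every Ctrl library and below it in every LKO library. The ratio of Cyp27a1 to Cyp7a1 was 22.5, 29.5 and 26.6 in Ctrl and 10.1, 8.07 and 9.24 in LKO. These were 3 of 6 ratios compared, and each of the 6 gave an exact two-sided permutation p of 0.1 (0.1 after Benjamini-Hochberg adjustment), the smallest that 3 against 3 libraries can give, so none could pass 0.05.

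**Figure D2:**
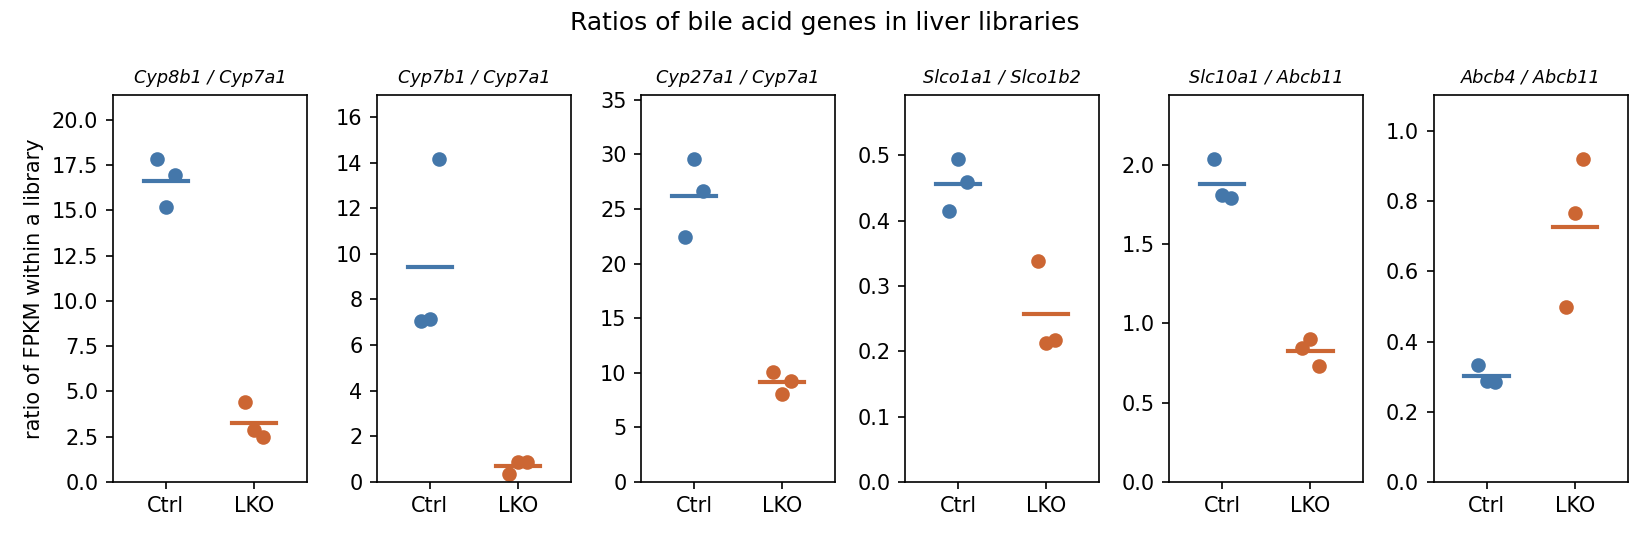
Ratio of FPKM of a pair of members within each liver library (vertical linear axis from 0, 1 panel per ratio), with Ctrl in blue, LKO in orange and a bar at each mean. The groups do not overlap in any panel, and only the ratio of Abcb4 to Abcb11 is higher in LKO, at 0.498 to 0.919 against 0.286 to 0.333.

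Baat (identifier 12012, chr4:49489418-49506558, minus strand), the conjugating enzyme, was measured at 149, 148 and 141 FPKM in Ctrl and at 97.6, 80.9 and 63.3 FPKM in LKO. The Ctrl libraries were close to each other and every LKO library was below them. Its log2 fold change was -0.87 (SE 0.16, 95% interval -1.25 to -0.50, adjusted p = 0.00728).

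The 3 uptake carriers all fell. Slc10a1 (identifier 20493, chr12:80953185-80968079, minus strand), the sodium-dependent carrier, was measured at 296, 295 and 279 FPKM in Ctrl and at 124, 143 and 94.6 FPKM in LKO. Its mean went from 289.7 ± 9.63 to 121 ± 24.2 FPKM, a log2 fold change of -1.28 (SE 0.16, 95% interval -1.65 to -0.91, adjusted p = 0.00206). Every LKO library was below every Ctrl library, and LKO 3 was the lowest.

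Slco1a1 (identifier 28248, chr6:141907281-141946962, minus strand), a sodium-independent carrier of organic anions, was measured at 120.0, 148 and 129 FPKM in Ctrl and at 40.9, 36 and 30.1 FPKM in LKO. The log2 fold change was -1.87 (SE 0.14, 95% interval -2.20 to -1.53, adjusted p = 4.5e-04), the lowest adjusted p of the 10. Slco1b2 (identifier 28253, chr6:141629518-141686635, plus strand), an uptake carrier of the same family on the same chromosome, was measured at 289, 299 and 282 FPKM in Ctrl and at 121, 169 and 138 FPKM in LKO. It fell by less, with a log2 fold change of -1.03 (SE 0.14, 95% interval -1.36 to -0.70, adjusted p = 0.00273). The ratio of Slco1a1 to Slco1b2 was 0.415, 0.493 and 0.459 in Ctrl and 0.338, 0.213 and 0.218 in LKO, with LKO 1 nearest to Ctrl. Reads of the closely related Slco1a genes could be split between them in the authors' quantification, so their separate values are less certain.

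Summed over Slc10a1, Slco1a1 and Slco1b2, the level of uptake carriers was 705, 741 and 690 FPKM in Ctrl and 286, 348 and 263 FPKM in LKO. The sums of the 2 groups were far apart compared with the spread within either.

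Neither canalicular member was called lower on the deposited FPKM. Abcb11 (identifier 27413, chr2:69238282-69342616, minus strand) was measured at 146, 163 and 156 FPKM in Ctrl and at 148, 158 and 130.0 FPKM in LKO. These ranges overlap, and the log2 fold change was -0.09 (SE 0.11, 95% interval -0.36 to 0.18, adjusted p = 0.513). The call depends on scaling, since under median-ratio scaling the log2 fold change was -0.53 with adjusted p = 0.0493, while it was 0.03 on the deposited TPM. Annotated exons of Abcb11 overlap the antisense genes Gm13613 and Gm13614, whose reads cannot be told apart without strand. The ratio of Slc10a1 to Abcb11 was 2.03, 1.81 and 1.79 in Ctrl and 0.842, 0.901 and 0.728 in LKO, so Slc10a1 stood above Abcb11 in every Ctrl library and below it in every LKO library.

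Abcb4 (identifier 18670, chr5:8893721-8959226, plus strand), the phospholipid floppase, was measured at 48.4, 47 and 44.4 FPKM in Ctrl and at 73.6, 121 and 119.5 FPKM in LKO. The Ctrl libraries were tight, LKO 1 was the lowest of its group, and the groups did not overlap. Its log2 fold change was 1.12 (SE 0.20, 95% interval 0.66 to 1.58, adjusted p = 0.00612), and it was called higher in each of the 16 alternative fits, median-ratio scaling included (0.68, adjusted p = 0.0131). The ratio of Abcb4 to Abcb11 was 0.333, 0.289 and 0.286 in Ctrl and 0.498, 0.767 and 0.919 in LKO.

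**Figure D3:**
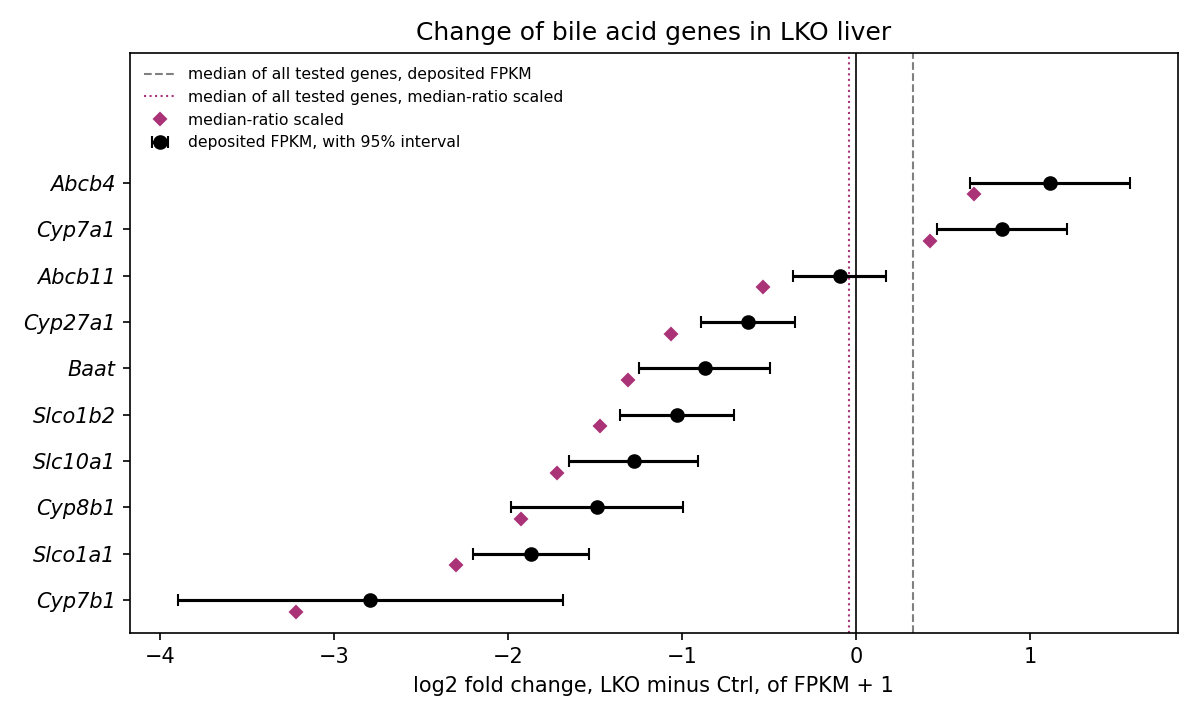
Log2 fold change of each member, LKO minus Ctrl, of FPKM + 1 (horizontal axis), as black points with 95% intervals on the deposited FPKM and as diamonds after median-ratio scaling, with dashed and dotted lines at the medians of all tested genes (0.33 and -0.04). Abcb4 and Cyp7a1 are to the right of both lines, Abcb11 has an interval across 0, and the 7 other members are to the left.

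The order of levels among the members also changed. In Ctrl liver the highest were Cyp27a1 (294 FPKM), Slco1b2 (290.0 FPKM) and Slc10a1 (289.7 FPKM), whose ranges overlapped. Cyp8b1, Abcb11, Baat, Slco1a1 and Cyp7b1 followed, each overlapping its neighbour, and Abcb4 and Cyp7a1 were lowest, with ranges apart from each other and from the rest. In LKO liver Cyp27a1 stayed first, apart from the next. Abcb11, Slco1b2, Slc10a1, Abcb4, Baat and Cyp8b1 formed a chain of overlapping ranges, Slco1a1 stood apart below them, and Cyp7a1 and Cyp7b1 were lowest, with overlapping ranges. Among all genes, ranked by mean level from the highest, Cyp7b1 had rank 647 in Ctrl and 3713 in LKO, and Cyp7a1 had rank 3789 in Ctrl and 2866 in LKO.

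Among other enzymes of the pathway, more were called lower than higher. Of 15 other synthesis enzymes listed, 13 were tested, of which 5 were called lower (5.49% of all tested genes), 1 was called higher (38.3%) and 7 were not called, with a median log2 fold change of -0.43 against 0.33 for all tested genes. Slc27a5, the bile acyl-CoA synthetase that acts just before Baat, was measured at 399.9, 428 and 417 FPKM in Ctrl and at 246, 201 and 153 FPKM in LKO (log2 fold change -1.08, adjusted p = 0.0050). Hsd3b7, which acts on the sterol nucleus in both pathways, was measured at 499, 407 and 461 FPKM and at 294, 258 and 206 FPKM (-0.86, adjusted p = 0.00747). Cyp2c70, which makes muricholic acids in mice, was measured at 283, 470.0 and 410.1 FPKM and at 192, 227 and 157 FPKM (-0.99, adjusted p = 0.0131). Every LKO library was below every Ctrl library in these 3 genes. Akr1c6 (-0.68, adjusted p = 0.0117) and Slc27a2, a very long chain acyl-CoA synthetase (-0.43, adjusted p = 0.0406), fell by less. Cyp39a1, an oxysterol hydroxylase, was the called gene of this list that rose, from 7.69, 10.5 and 9.94 FPKM in Ctrl to 13.7, 21.2 and 21.4 FPKM in LKO (0.91, adjusted p = 0.0122). Slc27a5 and Hsd3b7 were called in each of the 16 alternative fits, whereas the call was lost in 12 of them for Slc27a2, 4 for Akr1c6, 3 for Cyp2c70 and 2 for Cyp39a1. The number of enzymes called lower ran from 2 (without Ctrl 2) to 8 (without LKO 1) when a library was left out. Under median-ratio scaling, 10 enzymes of the list were called lower and 1 higher, while the shares of all tested genes were 17.9% and 15.2%.

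**Figure D4:**
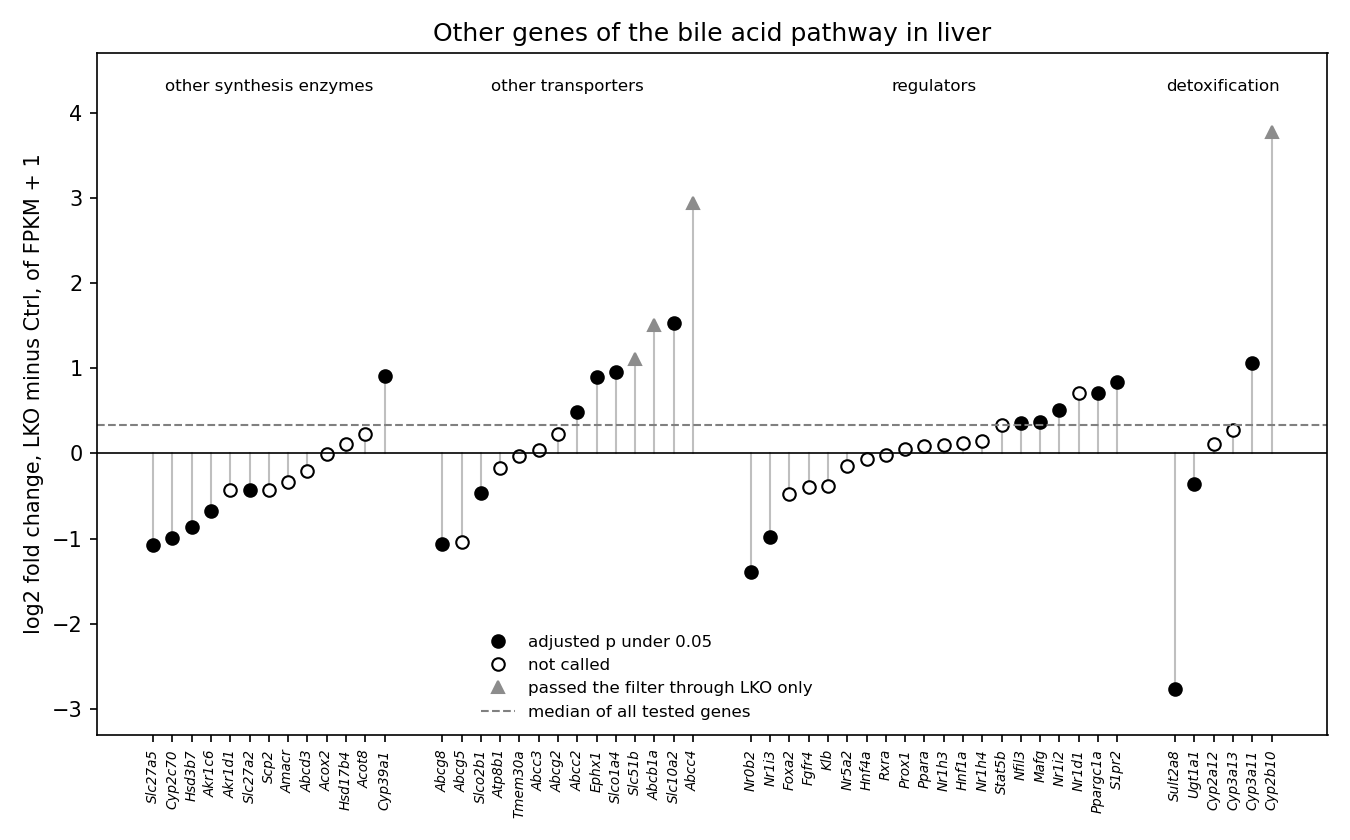
Log2 fold change, LKO minus Ctrl, of FPKM + 1 (vertical axis) of each tested gene in 4 lists of the bile acid pathway outside the 10 members, filled where the adjusted p was under 0.05, open otherwise and a grey triangle where a gene passed the filter on low values through LKO only, with a dashed line at the median of all tested genes (0.33). Synthesis enzymes lie mostly below 0, the transporter list has points on both sides, 3 of them triangles, and Sult2a8 is the lowest point of the detoxification list.

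Transporters outside the members moved in both directions. Of 18 listed, 14 were tested, 7 were called higher, 2 lower and 5 were not called, beside 38.3% higher and 5.49% lower among all tested genes. Of the 7, Abcc4, Abcb1a and Slc51b were under 1 FPKM in every Ctrl library and passed the filter on low values through LKO only, so they had to differ and are given by their values alone. Abcc4, which exports bile acids back to blood, was measured at 0.334, 0.261 and 0.316 FPKM in Ctrl and at 3.09, 9.52 and 22.2 FPKM in LKO. Slc10a2, the apical sodium-dependent carrier known from ileum and cholangiocytes, was measured at 4.76, 6.59 and 4.8 FPKM and at 30.0, 15.4 and 11 FPKM (log2 fold change 1.53, adjusted p = 0.012), with LKO 1 the highest. Abcb1a, a multidrug exporter, was measured at 0.545, 0.393 and 0.378 FPKM and at 1.92, 3.31 and 4.37 FPKM. Slc51b, a subunit of a basolateral bile acid exporter, was measured at 0.603, 0.314 and 0.413 FPKM and at 2.21, 1.43 and 2.79 FPKM. Slc51a, the other subunit, was at 0 FPKM in every liver library and was not tested. Slco1a4, a paralog of Slco1a1, was measured at 8.04, 6.69 and 6.63 FPKM in Ctrl and at 17.3, 13.4 and 13.6 FPKM in LKO (0.95, adjusted p = 0.00357), the opposite direction to Slco1a1. The calls of Slc10a2 and Slco1a4 were lost under median-ratio scaling (adjusted p = 0.074 and 0.0605), where 3 transporters were called higher and 3 lower, beside 15.2% and 17.9% of all tested genes. When a library was left out, 2 to 6 transporters were called higher and 0 to 3 lower, beside 1131 to 6144 and 268 to 892 of all genes. Abcc4, Abcb1a and Slc51b were not tested where an LKO library was left out. Among the lower genes, Slco2b1, an uptake carrier, had a log2 fold change of -0.46 (adjusted p = 0.0161), a call that was lost in 6 of the 16 alternative fits. Abcg8, a canalicular sterol exporter subunit, was measured at 29.7, 24.2 and 25.8 FPKM in Ctrl and at 22.9, 9.94 and 7.61 FPKM in LKO (-1.07, adjusted p = 0.0427). LKO 1 was near the Ctrl libraries for Abcg8, and its call was lost in 7 of the 16 alternative fits.

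Of 23 regulators listed, 20 were tested, 5 were called higher, 2 lower and 13 were not called, with a median log2 fold change of 0.09. Among all 10956 tested genes 38.3% were called higher, 5.49% lower and 6162 were not called, and the median was 0.33. When a library was left out, 1 to 7 regulators were called higher and 1 to 4 lower, beside 1131 to 6144 and 268 to 892 of all genes. The bile acid receptor FXR (Nr1h4) was measured at 36, 35.4 and 31.6 FPKM in Ctrl and at 36.5, 35.8 and 41.8 FPKM in LKO (0.14, adjusted p = 0.30). Nr0b2, which encodes SHP, a repressor of Cyp7a1 and Cyp8b1 that FXR induces, was measured at 42.1, 38.3 and 36.9 FPKM in Ctrl and at 34.5, 8.56 and 9.45 FPKM in LKO (-1.39, adjusted p = 0.0451). LKO 1 was close to Ctrl while LKO 2 and LKO 3 were low, and the call was lost in 8 of the 16 alternative fits, with adjusted p from 9.1e-06 to 0.145. Nr1i3, the nuclear receptor CAR, was measured at 72.2, 73 and 74.6 FPKM and at 33.3, 46.6 and 32 FPKM (-0.97, adjusted p = 0.0043) and was called lower in each alternative.

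LRH-1 (Nr5a2), HNF4A (Hnf4a), Fgfr4 and Klb were not called. LRH-1 had a log2 fold change of -0.14 (adjusted p = 0.434), and HNF4A one of -0.07 (adjusted p = 0.711). For Fgfr4, the receptor of the ileal hormone FGF15, it was -0.39 (adjusted p = 0.178), and for its co-receptor Klb -0.39 (adjusted p = 0.0588). The adjusted p of Klb was 0.0135 under median-ratio scaling, where its log2 fold change was -0.77. Without LKO 1, Fgfr4 was called lower (-0.65, adjusted p = 0.0016). S1pr2, a receptor of conjugated bile acids (0.84, adjusted p = 0.0293), Ppargc1a, a coactivator of Cyp7a1 (0.71, adjusted p = 0.0034), and Nr1i2, the receptor PXR (0.52, adjusted p = 0.0147), had the largest changes of the 5 higher regulators. The call was lost in 10 alternative fits for S1pr2 and in 6 for Nr1i2, median-ratio scaling included (adjusted p = 0.0654 and 0.652), and for Ppargc1a with quantile normalization (0.30, adjusted p = 0.0595). Under median-ratio scaling 1 regulator was called higher and 5 lower, beside 15.2% and 17.9% of all tested genes.

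All 6 genes of bile acid detoxification were tested, of which 2 were called higher and 2 lower, beside 38.3% and 5.49% of all tested genes. Sult2a8, a bile acid sulfotransferase, was measured at 299.6, 311 and 281 FPKM in Ctrl and at 44.7, 51.4 and 34.2 FPKM in LKO (-2.76, adjusted p = 1.7e-04). Cyp3a11, a hydroxylase of bile acids and drugs, was measured at 1742, 1429 and 1296 FPKM and at 3296, 3109.8 and 2843 FPKM (1.06, adjusted p = 0.0043), a call that was lost under median-ratio scaling (0.61, adjusted p = 0.0717). Cyp2b10, a target of CAR and PXR, was measured at 1.27, 0.492 and 0.32 FPKM and at 8.39, 19.6 and 57.9 FPKM. It is 1 of the 2 higher genes but passed the filter on low values through its LKO libraries, so its values alone are given, and those libraries differed widely among themselves. Ugt1a1, the bilirubin glucuronosyltransferase, had a log2 fold change of -0.36 (adjusted p = 0.0446), and its call was lost in 10 of the 16 alternative fits.

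In mouse liver Cyp7b1 and Slco1a1 are known for higher levels in males than in females, and 8 other transcripts with that known pattern were examined beside them. Xist was at most 0.0183 FPKM and Ddx3y at least 10.3 FPKM in all 24 libraries, so each carried transcripts of a Y chromosome. All 8 were tested, and 7 were called lower and 0 higher, with a median log2 fold change of -2.05, beside 5.49%, 38.3% and 0.33 for all tested genes. Susd4, 1 of the 7, passed the filter on low values in every Ctrl library but not in every LKO library. Hsd3b5, a steroid dehydrogenase, fell from 191, 185 and 213 FPKM to 1.81, 4.39 and 1.62 FPKM (-5.85, adjusted p = 1.4e-04), and Elovl3, a fatty acid elongase, from 441, 305 and 451 FPKM to 33.4, 36.3 and 12.8 FPKM (-3.92, adjusted p = 0.00103). Selenbp2 had a log2 fold change of -2.78 (adjusted p = 0.00345). Susd4 was also the gene with the pattern most like that of Cyp7b1. That likeness was taken over the same 6 liver libraries and includes the fall itself, so it is not a separate result. Of 11 transcripts known to be higher in females, 4 were tested, and 3 were called higher, beside 38.3% of all tested genes. Cyp2a4 was measured at 5.61, 3.91 and 2.5 FPKM in Ctrl and at 91, 94.2 and 214 FPKM in LKO (4.67, adjusted p = 5.3e-04), Cyp2b9 at 0.975, 0.058 and 0.0385 FPKM and at 7.68, 13.7 and 25.5 FPKM, and Cyp3a16 at 1.34, 0.942 and 0.92 FPKM and at 2.17, 1.93 and 1.78 FPKM. Cyp2b9 and Cyp3a16 passed the filter on low values through the LKO libraries, so their values alone are given and their calls add nothing to the count. Leaving out a library gave 1 to 3 transcripts of this list called higher, beside 1131 to 6144 of all genes. Cyp17a1, a steroid hydroxylase, was not called, at 2.38, 1.72 and 1.98 FPKM in Ctrl and at 21.7, 5.51 and 3.12 FPKM in LKO (1.49, adjusted p = 0.063), with LKO 1 the highest. It was called higher in 6 of the 16 alternative fits, such as without LKO 1 (0.78, adjusted p = 0.00765). Genes of the Cyp2a, Cyp2b and Cyp3a families share reads with near-identical copies, so their separate values are uncertain.

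Outside liver, where Alb-Cre is not expected to act, 3 of the 10 members were high enough to test. Cyp27a1 was tested in all 3 tissues, Abcb4 in GM and hypothalamus, and Cyp7b1 in hypothalamus. Members called by limma numbered 0 in each tissue, and 0 had an unadjusted p under 0.05. Among all genes the share called was 0% in iWAT (0 of 12288), 0% in GM (0 of 10877) and 0.0217% in hypothalamus (3 of 13828), while 1842, 743 and 515 genes had an unadjusted p under 0.05. Abcb4 was measured at 42.5, 39.0 and 41.9 FPKM in Ctrl GM, close to its level in Ctrl liver, and at 35.8, 39.8 and 36.5 FPKM in LKO GM. Cyp7b1 was measured at 4.47, 4.01 and 4.51 FPKM in Ctrl hypothalamus and at 4.65, 4.20 and 4.03 FPKM in LKO hypothalamus. Cyp27a1 ranged over 20.2 to 27.9 FPKM in iWAT, 33.4 to 48.7 FPKM in GM and 5.38 to 7.83 FPKM in hypothalamus, and the Ctrl and LKO ranges overlapped in each.

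The liver changes of these 3 genes were also tested against their changes in each other tissue, as a difference of log2 fold changes. For Cyp7b1 liver minus hypothalamus was -2.78 (adjusted p = 9.4e-05). For Abcb4 it was 1.25 against GM (adjusted p = 1.4e-04) and 1.15 against hypothalamus (adjusted p = 2.3e-04). For Cyp27a1 it was -0.64 against hypothalamus (adjusted p = 0.0108), -0.55 against iWAT (adjusted p = 0.0217) and -0.41 against GM, which did not pass (adjusted p = 0.0758) but did without GM Ctrl 3 (-0.55, adjusted p = 0.0198). Such differences were called for 45.4% of genes against iWAT, 46.3% against GM and 44.6% against hypothalamus, so the count of members that passed is not particular to them. Labels do not pair the libraries across tissues, and the fits treat them as separate.

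**Figure D5:**
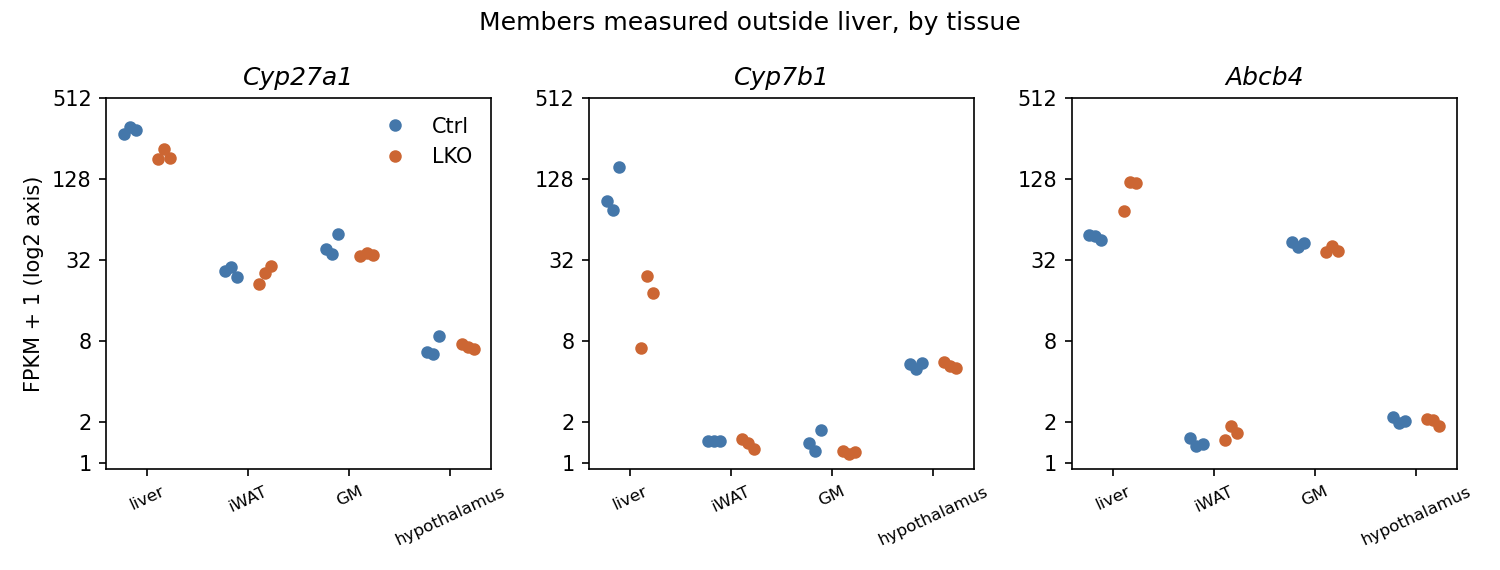
FPKM + 1 (vertical log2 axis) of Cyp27a1, Cyp7b1 and Abcb4 in each library of the 4 tissues, with Ctrl in blue and LKO in orange. The groups are apart in liver for all 3 genes, and the tested genes overlap between groups in iWAT, GM and hypothalamus.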

How the data were processed

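Total RNA of liver, iWAT, GM and hypothalamus was sequenced by the authors as 100 nt paired-end reads from TruSeq v2 libraries, which do not mark strand. The processing notes name FastQC 0.11.5, Trimmomatic 0.32, HISAT2 2.0.5, Bowtie2 2.2.6, STAR 2.5.2b and StringTie 1.3.3b with build mm10, without roles. The authors deposited FPKM in a joined table, which gave all tests, and coverage signal, FPKM and TPM in a table per library, which gave depth and an alternative. FPKM is a share of each library, so a rise of some transcripts lowers others. No read counts were used here. Groups came from the labels, which do not say whether libraries are separate mice, so p-values measure the spread between libraries, which may be technical. The depth estimate assumes a shared ratio of FPKM to coverage within a library and covers 4.45 to 8.09 Gb.

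Liver LKO was compared with Ctrl by limma 3.58.1 in R 4.3.3 (linear model, empirical Bayes with trend) on log2(FPKM + 1), which understates changes of low genes, for genes of at least 1 FPKM in at least 3 of 6 libraries. Genes were called at an adjusted p under 0.05 (Benjamini-Hochberg, all tested genes of that comparison). The study's text used here does not name the test behind its calls per gene. Fits were tested on simulated data. Ratios were compared by exact two-sided permutation. The members and lists were chosen with earlier results of these data known. Named were every called gene of a list with at most 6 of them, otherwise the 3 largest changes in each direction. Also named were Nr1h4, Nr0b2, Nr5a2, Hnf4a, Fgfr4, Klb, the tested paralogs of members, Susd4, Slc51a, Slc51b and Cyp17a1. The paralogs Abcb1b, Slco1a5 and Slco1a6 were too low in liver to test. Of the 7 hepatocyte markers listed, 6 matched a symbol. Alternatives were the pseudocount (0.1), filters, TPM, 3 scalings, ordinary variances, all 24 libraries in 1 fit, the replicate number as a block, a 1.5-fold minimum and leaving out each library.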

Additional observations from a re-analysis of the deposited data

Results flagged for a closer look

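Among all genes, the LKO change in liver differed from that in iWAT for 45.4%, in GM for 46.3% and in hypothalamus for 44.6%. In 5 cases the change of a member in liver differed from its change in another tissue by the same test, a count not particular to the members. These were Cyp7b1 against hypothalamus (-2.78, liver minus tissue on the log2 scale of FPKM + 1), Abcb4 against GM (1.25) and hypothalamus (1.15), and Cyp27a1 against hypothalamus (-0.64) and iWAT (-0.55), by limma with adjusted p from 9.4e-05 for Cyp7b1 to 0.0217 for Cyp27a1 against iWAT. In Cyp7b1 and Abcb4 these differences were called in every fit that left out a library. Cyp27a1 against iWAT was no longer called without liver LKO 3 (adjusted p = 0.0538), iWAT Ctrl 3 (adjusted p = 0.0575) or iWAT LKO 3 (adjusted p = 0.0636).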

How the results depend on the processing

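In liver, 7 members were called lower and 2 higher in every fit that left out a library, and 6 to 8 were called lower and 1 to 2 higher in the 11 other alternatives. Higher members numbered 1 with median-ratio scaling and 1 with quantile normalization, where Cyp7a1 was no longer called. Abcb11 changed sign on TPM (0.031) and with hepatocyte marker scaling (3.3e-04). Genes called higher and lower, 4193 and 601 in the fit reported, were 1663 and 1966 with median-ratio scaling, 1570 and 1732 with quantile normalization (47.5% of calls higher), 1706 and 267 with hepatocyte marker scaling, 1979 and 340 with ordinary variances, and 2622 and 384 with a 1.5-fold minimum. On TPM 6619 were higher, and with a mean of at least 5 FPKM 2482 were. Without 1 library the counts ran from 1131 (without LKO 2) to 6144 (without LKO 1) higher and from 268 (without Ctrl 3) to 892 lower.

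Over the 4 pathway lists, with 53 genes tested, 15 were called higher (38.3% of all genes), 4 of which passed the filter on low values through LKO only, and 11 lower (5.49%). These became 6 and 20 with median-ratio scaling (15.2% and 17.9% of all genes) and 7 and 6 with ordinary variances, 7 were higher with quantile normalization, and 7 were lower with no filter. They ran from 5 (without LKO 2) to 17 higher and from 4 (without Ctrl 2) to 17 (without LKO 1) lower when a library was left out. The difference of Cyp27a1 between liver and GM was called with median-ratio scaling (-0.88, adjusted p = 0.0053) and without GM Ctrl 3 (-0.55, adjusted p = 0.0198), running up to -0.31 when another library was left out, and that between liver and iWAT ran from -0.67 to -0.45. The cause of these shifts was not tested.

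Same-numbered liver libraries correlated by 0.0277 to 0.154 in their deviations from group means, so the numbers were not taken to pair them. With the replicate block 3389 genes were called higher and 517 lower, and the calls of the 10 members did not change. Leaving out each library of iWAT, GM and hypothalamus in turn, an alternative chosen after seeing the data, also gave 0 called members in each tissue by limma. The authors' files used here hold no counts, so no counting error could be given.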

Other observations

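Traces of liver transcripts were present in some GM libraries. Alb, the main plasma protein transcript of hepatocytes, stood at 167, 13.7 and 125 FPKM in Ctrl GM and at 65.6, 8.32 and 22.8 FPKM in LKO GM. Slco1b2 and Slc10a1 were highest in the same Ctrl 1 and Ctrl 3 libraries, at 1.29 and 0.835 FPKM and at 1.18 and 1.17 FPKM, against 0.0622 and 0.0881 FPKM in Ctrl 2. None of these members was tested in GM, and Abcb4 in GM, at 39.0 FPKM in Ctrl 2, was within the range of values over the other libraries.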
